A study of Mus musculus with 14 samples.

Results

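The genes described here build the vacuolar proton pump (v-ATPase), carry out autophagy, or sense nutrients at the lysosome. Members were chosen by symbol: every row of the deposited table whose name begins with Atp6v, Gabarap, Map1lc3, Lamp, Rrag, Lamtor or Wipi, or with Atg and a digit, together with Tfeb, Tfe3, Mitf, Sqstm1, Becn1, Ulk1, Ulk2, Flcn, Fnip1, Fnip2, Mcoln1, Ctsb, Ctsd and Ctsl. This gave 76 of the 24972 rows, of which 67 had a mean normalized count of at least 10 over the libraries and entered the test of 12693 genes. The other 9 were Atp6v0d2, Atp6v1b1, Atp6v1c2, Atp6v1e2, Atp6v1fnb, Atp6v1g3, Lamp3, Lamp5 and Rragb, and no fold change is given for them.

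RNA-seq had been carried out on mouse liver cancer (HCC) cell lines to learn how cells live without the cytosolic enzymes that make acetyl-CoA, namely ATP-citrate lyase (ACLY), which uses citrate, and acyl-CoA synthetase short-chain family member 2 (ACSS2), which uses acetate. The 14 libraries comprised 4 of WT (line D42V), 4 of ACLY KO (D42C4V), 3 of ACSS2 KO (D42 Sg2-3) and 3 of the double knockout DKO1 (D42C4 Sg2-2), each from cells kept for 24 h in DMEM with 10% calf serum. All lines descend from chemically induced tumors of mice with floxed Acly alleles and carry a LentiCRISPR vector, empty in WT and ACLY KO and with a guide to Acss2 in the other lines, and were selected with puromycin. Acly was deleted with adenoviral Cre, after which ACLY KO populations were grown from single cells. DKO1 was made by editing Acss2 in ACLY KO cells, and the names of both lines begin with D42C4. ACLY KO and DKO1 therefore share their ACLY-deleted origin and are not independent examples of ACLY loss. ACSS2 KO and DKO1 are each a single-cell clone, whereas WT is a bulk population, so that genotype and clone cannot be told apart. The study calls the points of its plots biological replicates in general terms, without saying how the libraries of a group were cultured, and p-values here measure the spread between these libraries.

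The v-ATPase couples ATP hydrolysis by its cytosolic V1 sector to proton transport through its membrane V0 sector, and so acidifies lysosomes. The Ragulator complex and the Rag GTPases sit on the same membrane and recruit the kinase mTORC1 when amino acids are plentiful. Active mTORC1 restrains the ULK kinase complex that starts autophagy and keeps the MiT/TFE transcription factors (Tfeb, Tfe3, Mitf) in the cytosol. In the nucleus these factors bind E-boxes with the core CACGTG in promoters of lysosomal and autophagy genes, the CLEAR network.

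Libraries held 23565707 to 26946164 normalized counts, and the value of the lowest nonzero counts implied about 19169815 to 33531545 reads. Acly fell in ACLY KO (log2 fold change -2.59) and in DKO1 (-2.67). Acss2 fell in ACSS2 KO (-0.84) but was higher than in WT in ACLY KO (1.59) and in DKO1 (1.16). Of 10 hepatocyte markers 4 had a mean under 10 (Apoa1, Ttr, Fgb and Serpina1b), Alb averaged 11.3 to 133.7 by group, Hnf4a 172 in WT and 22.4 to 39.8 in the knockouts, and the keratin gene Krt8 18235 to 26051. Other markers of this list were higher in a knockout, with Afp at 37.0 in WT, 127 in ACLY KO, 34.3 for ACSS2 KO and 209.7 for DKO1, and Apob at 112, 80.1, 30.1 and 282. Summed fibroblast and stellate markers were 2112 to 2409 in WT, 3127 to 3525 in ACLY KO, 5231 to 6165 for ACSS2 KO and 1508 to 1657 for DKO1. Members of this list moved in unlike ways. In the same order of groups, Col1a1 averaged 428, 2454, 523 and 477, and Acta2 1657, 630, 4454 and 774. Dcn averaged 154, 182, 820 and 178, and Col1a2 19.3, 55.8, 19.2 and 99.6. Pdgfrb averaged 11.5, 13.8, 27.2 and 31.5, and Lum 2.01 or less. Summed macrophage markers were 1351 to 1791 in all libraries, of which Csf1r and Cd14 made up most. Marco was at 0 and Adgre1, Lyz2 and C1qa at group means of 1.45 or less. By group in that order, Cd68 averaged 48.7, 66.4, 34.8 and 81.8, and Ptprc 4.45, 11.7, 2.76 and 18.4. Both were thus higher than in WT in ACLY KO and DKO1 and lower in ACSS2 KO. Means of Csf1r and Cd14 were lower than in WT (1158 and 253) in ACLY KO (1131 and 182). They were higher in ACSS2 KO (1303 and 321) and in DKO1. The 4 endothelial markers summed to 17.5 to 27.2 in WT, 77.1 to 90.6 in ACLY KO, 10.5 to 18.3 for ACSS2 KO and 40.2 to 53.4 for DKO1, higher in ACLY KO and DKO1 mostly through Pecam1 (7.51, 61.7, 9.31 and 37.7), while Kdr averaged 12.9 in WT and 3.84 or less in the knockouts and Emcn was at 0.751 or less. The part of these in the results was not tested. DKO1 replicate 4 and WT replicate 2 stood apart in favouring short transcripts (Spearman correlation of the deviation from the group mean with transcript length -0.69 and -0.60 over 12577 tested genes with a length), and ACLY KO replicate 4 and ACSS2 KO replicate 1 did so as well (-0.59 and -0.54). DKO1 replicate 4 moved many values, and for a number of members the value without it is given as well.

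More members were higher than lower in every comparison with WT. A gene was called at a Benjamini-Hochberg adjusted p under 0.05 in a limma fit of log2(normalized count + 1) over all 12693 tested genes, and fold changes are on that scale, which understates the change of low genes. In ACLY KO 26 of 67 members rose and 6 fell (38.8% and 8.96%), against 23.8% and 24.7% of all tested genes. In ACSS2 KO 14 rose and 4 fell (20.9% and 5.97%), against 15.0% and 11.0%. In DKO1 36 rose and 6 fell (53.7% and 8.96%), against 27.9% and 28.1%. DKO1 exceeded ACLY KO in 15 members and was below it in 2, where the shares of all genes were 14.3% and 13.6%. DKO1 exceeded ACSS2 KO in 29 and was below it in 5, where they were 25.9% and 27.8%. The median log2 fold change of the members against WT was 0.18 in ACLY KO, 0.069 for ACSS2 KO and 0.38 for DKO1, beside medians of all genes of -0.006, 0.001 and 0.004. These comparisons share libraries, and those of DKO1 rested in part on its replicate 4: without it the DKO1 median against WT was 0.25, with 35 members higher and 8 lower, where 61.3% of all genes were called.

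Changes were mostly small. With limits of 1.5 on the absolute log2 fold change and 0.01 on the adjusted p, 1 member passed in ACLY KO (Atp6v0e2), 2 in ACSS2 KO (Atp6v0e2 and Rragd), 2 in DKO1 against WT (the same pair), 0 in DKO1 against ACLY KO and 2 in DKO1 against ACSS2 KO (Atg9b and Rragd), where 8.80%, 2.42%, 9.84%, 2.06% and 11.3% of all tested genes passed. Beside the count of 0, the same limma fit called 17 members at an adjusted p under 0.05 without a limit on size. These few genes are named because the counts are small, after their values were seen.

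**Figure D1:**
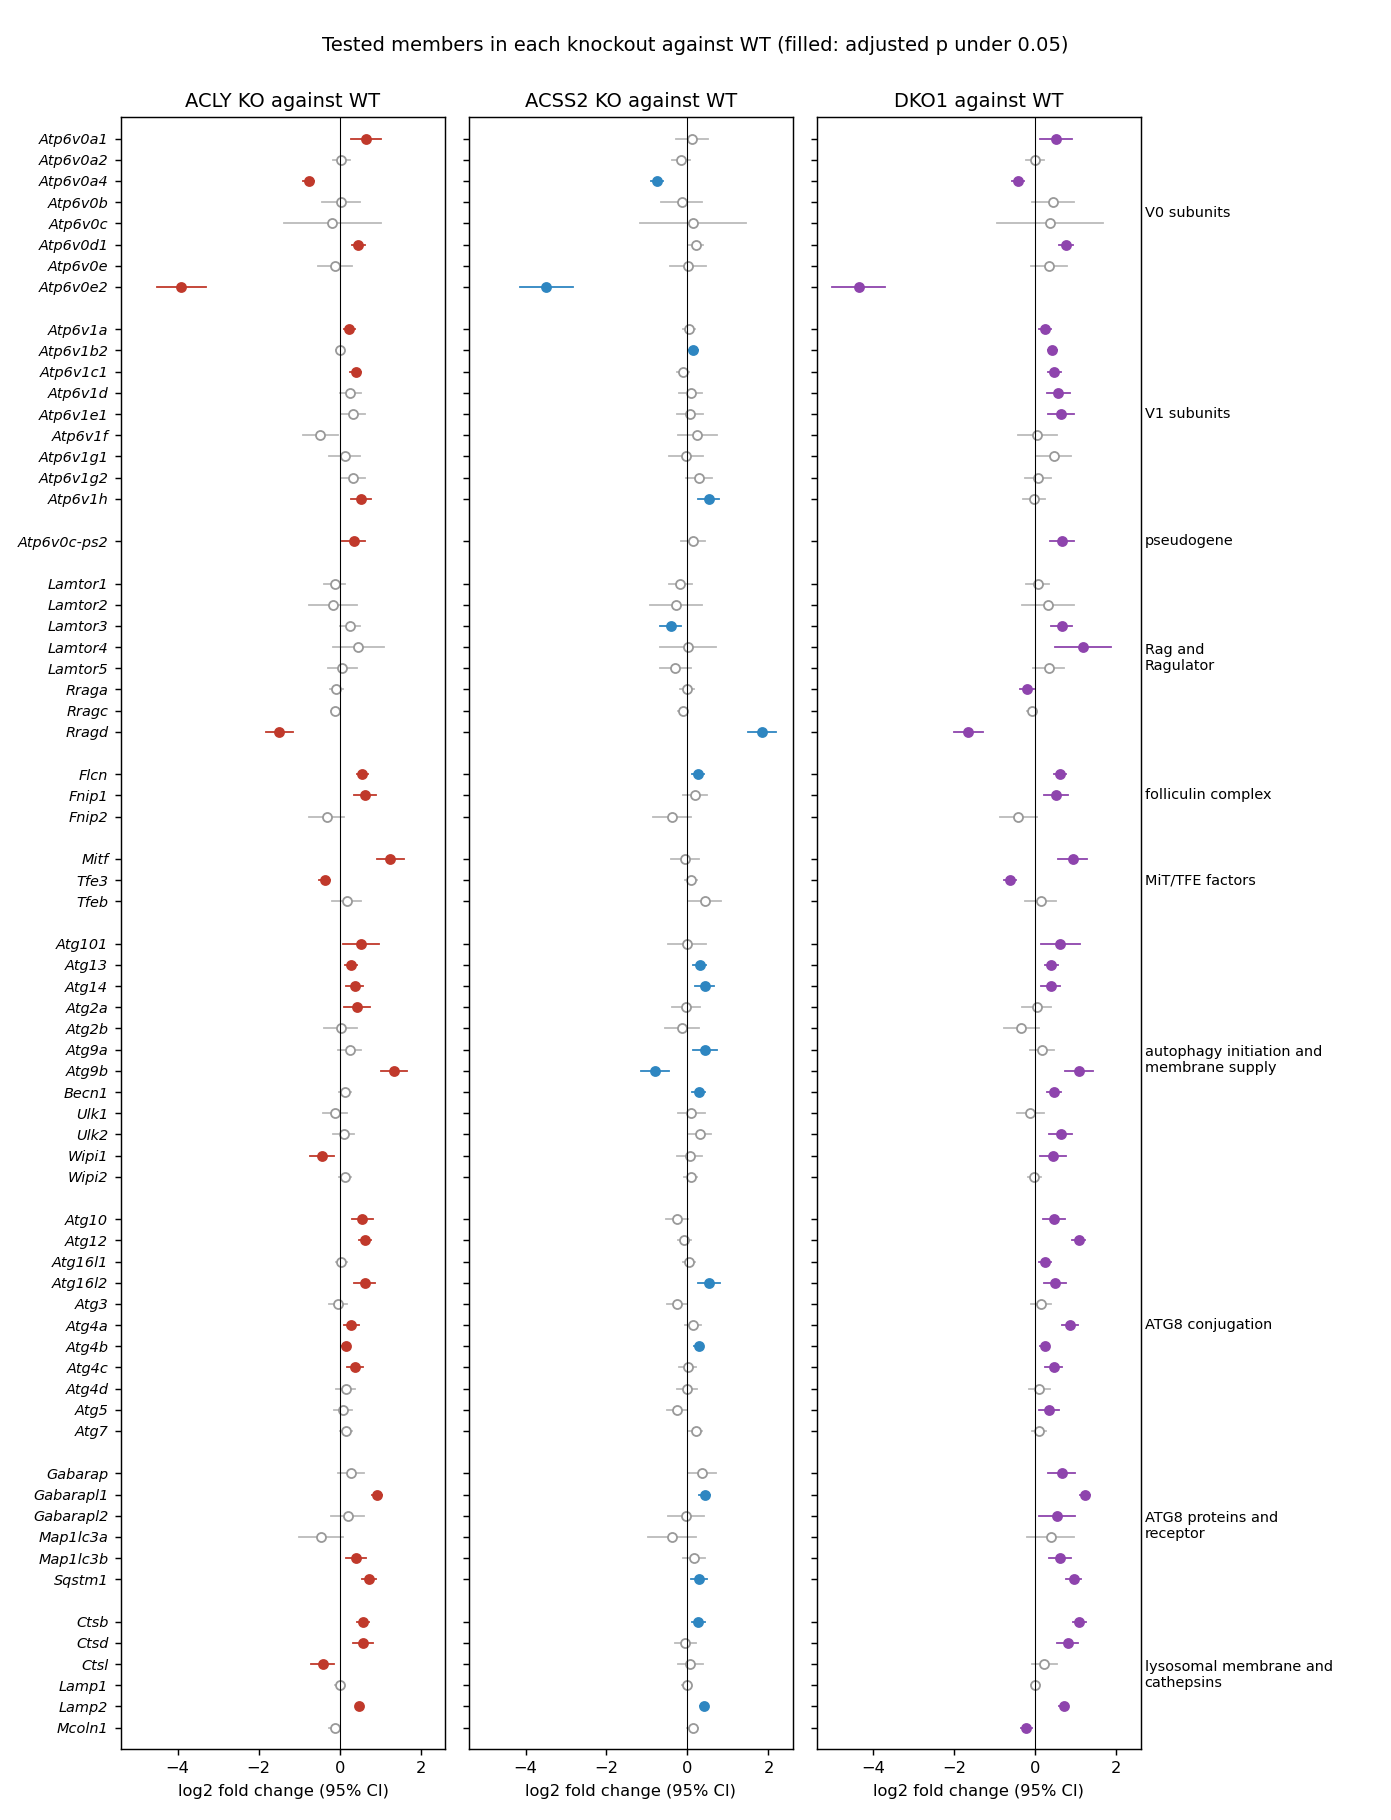
Log2 fold change with its 95% confidence interval (x axis) of each of the 67 tested members (y axis, grouped by role) in ACLY KO, ACSS2 KO and DKO1 against WT. Filled points passed an adjusted p of 0.05 and open points did not. Atp6v0e2 lies far to the left in all 3 panels, Rragd lies left in ACLY KO and DKO1 and right in ACSS2 KO, and the autophagy groups lie mostly right of 0 in DKO1.

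The counts of v-ATPase and autophagy genes are set side by side here. The v-ATPase subunit genes counted are those with Atp6v symbols, so that the a subunit gene Tcirg1 is not among them. Of these 22 genes 17 were tested, of which 5 rose and 2 fell in ACLY KO, 2 rose and 2 fell in ACSS2 KO, and 7 rose and 2 fell in DKO1. As shares of the 17 those that rose were 29.4%, 11.8% and 41.2%, beside 23.8%, 15.0% and 27.9% of all genes. Of 29 autophagy genes (the Atg, ATG8-family and Wipi genes with Becn1, Ulk1, Ulk2 and Sqstm1) all 29 were tested, of which 14 rose and 1 fell in ACLY KO, 8 rose and 1 fell in ACSS2 KO, and 20 rose and 0 fell in DKO1. The shares of these that rose were 48.3%, 27.6% and 69.0%. DKO1 exceeded ACLY KO in 3 subunits and 8 autophagy genes (17.6% and 27.6%, beside 14.3% of all genes). It was below ACLY KO in 1 and 0 (1 and 1 at an unadjusted limma p under 0.05), beside 13.6% of all genes. DKO1 exceeded ACSS2 KO in 7 and 13 (41.2% and 44.8%, beside 25.9%). It was below ACSS2 KO in 2 and 0 (2 and 0 at an unadjusted limma p under 0.05), beside 27.8%. The difference between the groups of genes was not tested, as genes of a group are not replicates. Beside the 0 autophagy genes that fell in DKO1 by limma, 0 did at an unadjusted p under 0.05, and 0 in the fits without DKO1 replicate 4 and after removal of the length trend.

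The strongest change lay in subunit e of the V0 sector, a small membrane protein made from either of 2 genes. Atp6v0e2 (chr6:48537615-48541801, GRCm38, plus strand) had normalized counts of 323, 300.4, 255 and 278 in WT libraries, 21.0, 17.7, 17.0 and 17.2 in those of ACLY KO, 28.8, 25.5 and 20.6 for ACSS2 KO and 15.2, 6.23 and 22.9 for DKO1, in replicate order (1 to 4 in WT and ACLY KO; 1, 2 and 4 in ACSS2 KO; 1, 3 and 4 in DKO1, here and below). Every knockout library lay far below every WT library, and the lowest WT value was more than 8 times the highest knockout value. The fall was 15.1-fold in ACLY KO (log2 fold change -3.92 ± 0.28 SE, adjusted p = 1.2e-07), 11.2-fold in ACSS2 KO (-3.49 ± 0.30, adjusted p = 3.2e-06) and 20.5-fold in DKO1 (-4.36 ± 0.30, adjusted p = 9.2e-08). Among 12693 genes it ranked 1 by fitted fall in ACLY KO, 11 for ACSS2 KO and 4 for DKO1. DKO1 was below ACSS2 KO (-0.87, adjusted p = 0.036), a call lost without DKO1 replicate 3 (-0.39, adjusted p = 0.12), ACSS2 KO replicate 1 (-0.77) or ACSS2 KO replicate 2 (-0.85). The interaction, (DKO1 minus ACLY KO) minus (ACSS2 KO minus WT), was 3.05 ± 0.43 (adjusted p = 0.00018) with the gene low in both lines that carried a single knockout.

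Its paralog Atp6v0e (chr17:26663231-26699647, plus strand) did not pass the test in any comparison. It had 3379, 4415, 3255 and 3109.9 in WT libraries, 3053, 3337, 3006 and 3542 in those of ACLY KO, 3812, 3396 and 3339.6 for ACSS2 KO and 3437, 3591 and 7001 for DKO1. The groups overlapped apart from DKO1 replicate 4, which held the highest value. The log2 fold change was -0.12 in ACLY KO (95% confidence interval -0.53 to 0.29), 0.0018 in ACSS2 KO (-0.44 to 0.45) and 0.33 in DKO1 (-0.11 to 0.78), which became 0.0031 (adjusted p = 0.98) without DKO1 replicate 4. Per kb of merged exons, a length that includes every annotated isoform, WT averaged 162 for Atp6v0e2 and 954 for Atp6v0e, and on this scale Atp6v0e2 made up 12.4% to 16.6% of the pair in WT libraries, 0.997% to 1.40% in ACLY KO, 1.26% to 1.54% for ACSS2 KO and 0.359% to 0.910% for DKO1. Almost all counts of the pair thus came from Atp6v0e in the knockouts. The log2 ratio of Atp6v0e2 to Atp6v0e within a library averaged -3.60 in WT, -7.40 in ACLY KO, -7.09 for ACSS2 KO and -8.29 for DKO1. Over the 7 ACLY-deficient against the 7 ACLY-proficient libraries it differed by -2.69 (exact two-sided permutation test over libraries, p = 0.0012, the first of 5 paralog pairs). As ACSS2 KO was low too, this contrast mixes high and low libraries on one side. The ACLY-deficient side holds only the lines ACLY KO and DKO1, and the other only WT and ACSS2 KO. The permutation treats libraries of a line as replicates of ACLY status. The p-values of this contrast, here and for other pairs, therefore do not measure the spread between lines. Against WT alone the ratio differed by -3.80 in ACLY KO, -3.49 for ACSS2 KO and -4.69 for DKO1 (exact permutation, p = 0.029 each, the lowest value that groups of this size can give). Those of ACSS2 KO and DKO1 were added after the data were seen. DKO1 differed from ACLY KO by -0.90 (p = 0.029, exact) and from ACSS2 KO by -1.20 (p = 0.1, exact, the smallest that 3 against 3 allows).

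**Figure D2:**
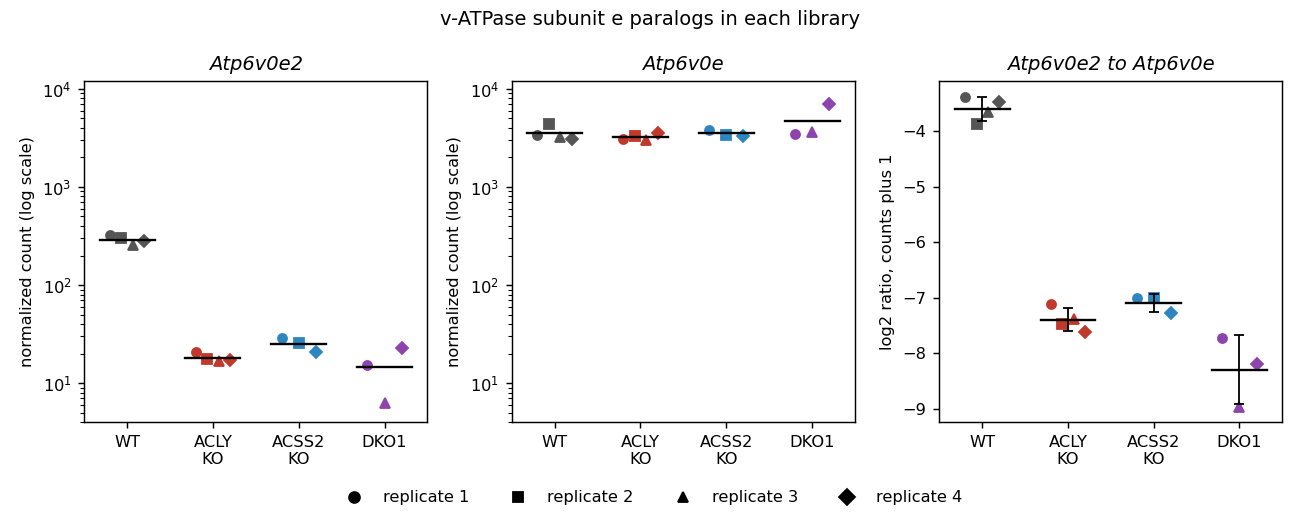
Normalized counts of Atp6v0e2 and Atp6v0e on a log axis, and their log2 ratio, in each of the 14 libraries, by genotype. Symbols mark the replicate number, lines the group mean and whiskers in the ratio panel 1 SD. WT libraries hold 255 to 323 counts of Atp6v0e2 and every knockout library 28.8 or less, while Atp6v0e is level apart from DKO1 replicate 4.

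The promoters of the pair are shown because they differ in the E-box that MiT/TFE factors read (RefSeq, GRCm38.p6; 250 bases before to 50 after the start; 5′ to 3′ on the gene's strand; capitals mark CACGTG with a flanking T before or A after it). The window of Atp6v0e holds TCACGTGA close to its start and that of Atp6v0e2 holds no CACGTG. The RefSeq start of Atp6v0e lies inside the span given above, which includes a further start upstream.
Atp6v0e2, chr6:48537319-48537618, plus strand: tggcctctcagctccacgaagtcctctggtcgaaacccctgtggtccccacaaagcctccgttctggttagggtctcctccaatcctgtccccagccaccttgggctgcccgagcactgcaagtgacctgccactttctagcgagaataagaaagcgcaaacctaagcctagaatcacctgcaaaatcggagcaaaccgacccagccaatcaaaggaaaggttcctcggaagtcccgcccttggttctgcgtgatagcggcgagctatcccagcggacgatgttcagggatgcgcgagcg
Atp6v0e, chr17:26676146-26676445, plus strand: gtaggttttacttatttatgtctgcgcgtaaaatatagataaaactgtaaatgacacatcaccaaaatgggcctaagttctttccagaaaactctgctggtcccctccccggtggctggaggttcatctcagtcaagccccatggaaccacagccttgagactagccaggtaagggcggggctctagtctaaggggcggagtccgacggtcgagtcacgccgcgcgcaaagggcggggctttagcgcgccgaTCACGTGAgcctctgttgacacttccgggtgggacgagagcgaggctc
Of the 76 members 63 had such a window, 74 windows in all with 300 bases each. CACGTG (which reads alike on both strands) was in 17 of them (23.0%), each of another gene, against 7.2% of all 32851 promoter windows, and TCACGTG or its complement CACGTGA, which contain it, in 15 (20.3%) against 3.8%. Among the 16 tested genes with CACGTG 7 rose and 1 fell in DKO1 against WT, and among the 39 without it 21 rose and 5 fell. Of all tested genes 27.9% rose and 28.1% fell there. In ACLY KO the counts were 5 and 1 of 16 against 16 and 5 of 39, beside 23.8% and 24.7% of all tested genes. Presence of these letters is a description of the windows and not of binding.

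Among genes within 500000 bases of Atp6v0e2, 11 others were tested. In ACLY KO 5 of them fell and 2 rose, in DKO1 7 fell and 1 rose, and in ACSS2 KO 1 fell and 3 rose. Zfp775, a zinc finger gene, fell in ACLY KO (-2.63) and DKO1 (-3.05) and stood at 0.61 in ACSS2 KO (adjusted p = 0.067). Repin1, a further zinc finger gene, fell in ACLY KO (-2.09) and DKO1 (-2.27) and rose in ACSS2 KO (1.18). These neighbours were chosen by position after the data were seen. In ACSS2 KO the neighbour that fell was Gimap9 (-1.22), which rose in ACLY KO (0.78). Over the 604 tested genes of chromosome 6 the median was -0.17 in ACLY KO, -0.020 for ACSS2 KO and -0.20 for DKO1. The part of the chromosome in the fall of Atp6v0e2 was not tested.

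**Figure D3:**
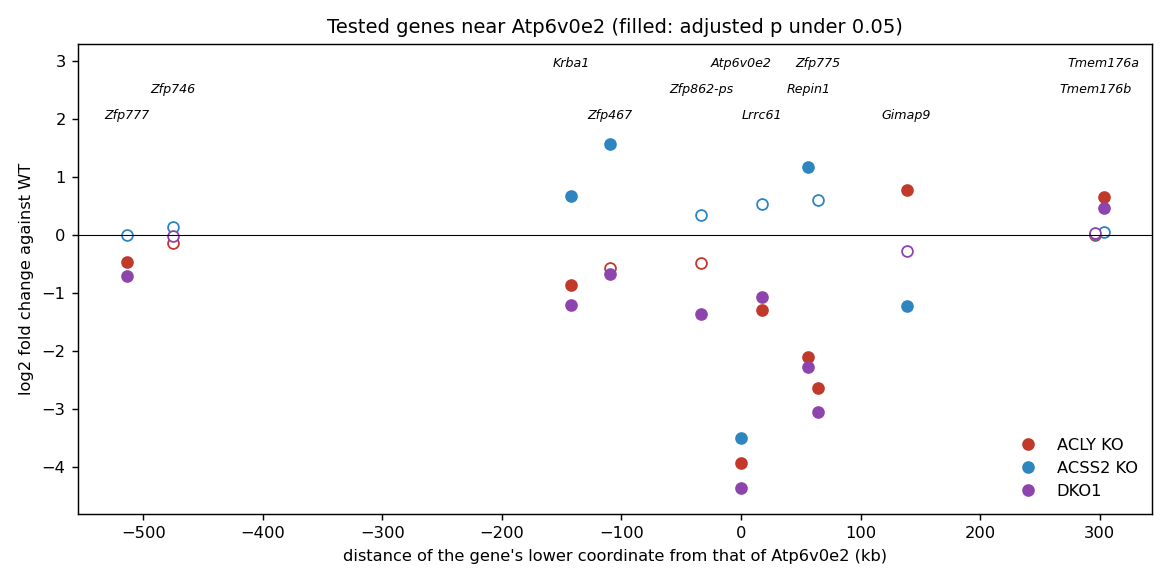
Log2 fold change against WT (y axis) of the 12 tested genes within 500000 bases of Atp6v0e2, by distance in kb (x axis), in ACLY KO, ACSS2 KO and DKO1; filled points passed an adjusted p of 0.05. Around Atp6v0e2 the ACLY KO and DKO1 points fall together below 0 while those of ACSS2 KO lie mostly above it.

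Subunit a of V0, which holds the proton channel's entry and sorts the pump to its membrane, showed a shift between paralogs as well. Atp6v0a4, the form best known from kidney and epithelial cells, had 1177, 1051, 1175 and 1245 in WT libraries, 646, 666, 725 and 686 in those of ACLY KO, 659, 699.9 and 694 for ACSS2 KO and 891, 855 and 824 for DKO1. It was lower than in all WT libraries in all 3 knockouts, by 1.70-fold in ACLY KO (-0.77 ± 0.064, adjusted p = 4.5e-07), 1.69-fold in ACSS2 KO (-0.76, adjusted p = 4.6e-06) and 1.35-fold in DKO1 (-0.44, adjusted p = 0.00013). DKO1 lay above both single knockouts (0.33 and 0.32, adjusted p = 0.0031 and 0.0023), and the interaction was 1.09 (adjusted p = 4.1e-06). Atp6v0a1, the widely expressed form, had 2419.9, 1968, 2678 and 2628 in WT libraries, 3933, 3883, 3969 and 3354 in those of ACLY KO, 2478, 2651 and 2686 for ACSS2 KO and 4122, 4217 and 2279.7 for DKO1. It rose in ACLY KO (0.65 ± 0.17, adjusted p = 0.0059) and, with DKO1 replicate 4 down among the WT values, in DKO1 (0.50, adjusted p = 0.032). The DKO1 call was lost without DKO1 replicate 1 (0.37), DKO1 replicate 3 (0.35), WT replicate 1 (0.51) or WT replicate 2 (0.41). Without DKO1 replicate 4 it was 0.79.

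Atp6v0a2, the Golgi and endosomal form, had 2286, 1900.1, 2321 and 2359 in WT libraries, 2295, 2261, 2310.0 and 2212 in those of ACLY KO, 1948, 1988 and 1971 for ACSS2 KO and 2426, 2451 and 1808 for DKO1 and passed in no comparison. The difference of DKO1 from ACSS2 KO, 0.16, was 0.31 (adjusted p = 0.0045) without DKO1 replicate 4. The log2 ratio of Atp6v0a4 to Atp6v0a1 was -1.05 in WT, -2.47 in ACLY KO, -1.93 for ACSS2 KO and -1.99 for DKO1, with a difference of -0.84 between ACLY-deficient and ACLY-proficient libraries (exact permutation p = 0.0076). For Atp6v0a4 to Atp6v0a2 it was -0.39 (p = 0.023, exact), for Atp6v0a2 to Atp6v0a1 -0.45 (p = 0.0023, exact) and for Atp6v1g2 to Atp6v1g1 -0.19 (p = 0.48, exact). With the subunit e pair these are the 5 pairs of Atp6v genes in which both were tested. These contrasts too pool unlike lines on a side. For Atp6v0a4 to Atp6v0a1, Atp6v0a4 to Atp6v0a2 and Atp6v0a2 to Atp6v0a1 ACLY KO differed from WT by -1.42, -0.81 and -0.61 (exact p = 0.029 each). ACSS2 KO differed from WT by -0.87, -0.60 and -0.28 (exact p = 0.029 each). DKO1 differed from ACSS2 KO by -0.065, 0.16 and -0.22 (exact p = 0.3 or more). A further a subunit, Tcirg1 (a3), had 881 to 1141 in WT, 632 to 659 in ACLY KO, 1240.0 to 1442 for ACSS2 KO and 562 to 604 for DKO1. It fell in ACLY KO (-0.63, adjusted p = 1.6e-05) and DKO1 (-0.80, adjusted p = 3.4e-06) and rose in ACSS2 KO (0.39, adjusted p = 0.0032).

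The d subunit links V0 to the stalk of V1. Atp6v0d1 had 1595, 1640.1, 1555 and 1459 in WT libraries, 2054, 2195, 2109 and 2241 in those of ACLY KO, 1869, 1669 and 1867 for ACSS2 KO and 2424, 2518 and 3056 for DKO1. All ACLY KO and DKO1 libraries were above all WT libraries, with log2 fold changes of 0.46 ± 0.076 (adjusted p = 0.00022) and 0.76 ± 0.082 (adjusted p = 4.8e-06), beside 0.20 in ACSS2 KO (adjusted p = 0.089). Its paralog Atp6v0d2, the osteoclast form, had 1.21 counts or fewer in every library. The proteolipid ring is built from Atp6v0b and Atp6v0c. Atp6v0b had 2425 to 3309 in WT, 2466 to 3041 in ACLY KO, 2302 to 2674 for ACSS2 KO and 2652 to 6336 for DKO1, without a call. Atp6v0c shares its sequence with the processed pseudogene Atp6v0c-ps2 (chr6:37806086-37806550, a single exon), so that counts may be split between them. Atp6v0c made up 8.39% to 53.4% of their sum over the libraries, with 9812 counts in DKO1 replicate 4 and 6096 in WT replicate 2, the largest values. Their sum was 9298 to 11406.5 in WT, 10926 to 11976 in ACLY KO, 10262 to 11252 for ACSS2 KO, and 12837.5, 13977 and 20979 for DKO1. The rises called for Atp6v0c-ps2 in ACLY KO and DKO1 (0.34 and 0.66) are uncertain for this reason, the first was lost in 9 of 14 fits without a library, and both were lost after removal of the length trend (0.27 and 0.17).

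In the V1 sector 3 of 9 tested subunits rose in ACLY KO, 2 for ACSS2 KO and 5 for DKO1, and 0 fell by limma (1, 0 and 0 at an unadjusted p under 0.05). The shares that rose were 33.3%, 22.2% and 55.6%, beside 23.8%, 15.0% and 27.9% of all genes. Atp6v1b2, which forms the catalytic ring together with subunit A, had 2671, 2590.3, 2599.7 and 2584 in WT libraries, 2615, 2575, 2693 and 2588 in those of ACLY KO, 2918, 2826 and 2933 for ACSS2 KO and 3572, 3573 and 3372 for DKO1. DKO1 was above every other library and ACSS2 KO above WT, with log2 fold changes against WT of 0.42 ± 0.048 in DKO1 (adjusted p = 7.6e-06), 0.15 in ACSS2 KO (adjusted p = 0.038) and 0.0035 in ACLY KO (adjusted p = 0.96). The small ACSS2 KO difference lost its call in 11 of the 14 fits that left out a library. Subunit A itself, Atp6v1a, rose in ACLY KO (0.23) and DKO1 (0.24; adjusted p = 0.0081 and 0.0088). The rotor subunit Atp6v1d, with 1443 to 1999.6 in WT and 2106 to 3015 in DKO1, rose in DKO1 (0.57, adjusted p = 0.0026; 0.40 without DKO1 replicate 4). The tissue-restricted forms Atp6v1b1, Atp6v1e2 and Atp6v1g3 had 1.42 counts or fewer in every library, and Atp6v1c2 6.58 or fewer.

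Atp6v1c1, the subunit that bridges V1 and V0, had 3865, 3909, 3672 and 3814 in WT libraries, 4949, 5073, 4873 and 5169.7 in those of ACLY KO, 3593, 3432 and 3588 for ACSS2 KO and 4809.8, 5139.6 and 6016 for DKO1. ACLY KO and DKO1 lay above WT and ACSS2 KO without overlap (0.39 ± 0.065 and 0.47 ± 0.070 against WT, adjusted p = 0.00021 and 7.9e-05). Atp6v1e1, a peripheral stalk subunit, had 3106, 3948, 3020.1 and 2900.4 in WT libraries, 4027, 3972, 3868 and 4338 in those of ACLY KO, 3567, 3218 and 3355 for ACSS2 KO and 4137, 4542 and 6785 for DKO1. Its rise in DKO1 (0.64 ± 0.15, adjusted p = 0.0024) shrank to 0.43 without DKO1 replicate 4 (adjusted p = 0.0029). The stalk subunit Atp6v1g1 had 2556 to 3472 in WT, 2942 to 3488 in ACLY KO, 2598 to 2965 for ACSS2 KO, and 2991, 3373 and 6043 for DKO1, and its paralog Atp6v1g2 33.2 to 51.2 in all libraries; neither passed. The DKO1 value of Atp6v1g1 was 0.45 (adjusted p = 0.062); leaving out DKO1 replicate 4 made it 0.15 (adjusted p = 0.3). Per kb, WT averaged 2551 for the first and 19.3 for the second.

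Atp6v1h, the H subunit that holds back free V1, followed another course. It had 1819, 2276, 1789 and 1749 in WT libraries, 2687, 2698, 2708 and 2863 in those of ACLY KO, 2794, 2659.6 and 2715 for ACSS2 KO and 1619, 1635 and 2367 for DKO1. Both single knockouts lay above WT (0.53 ± 0.12 in ACLY KO and 0.52 ± 0.12 in ACSS2 KO, adjusted p = 0.0019 and 0.0073), while DKO1 overlapped WT (-0.042, adjusted p = 0.8). DKO1 was called below WT without its replicate 4, the highest of the group (-0.22, adjusted p = 0.042), and likewise without both this library and WT replicate 2 (-0.13, adjusted p = 0.017). DKO1 was below ACLY KO (-0.57, adjusted p = 0.0043) and below ACSS2 KO (-0.56, adjusted p = 0.0031), with an interaction of -1.09 ± 0.18 (adjusted p = 0.00053). Atp6v1f, a V1 rotor subunit, was not called in any comparison. Its ACLY KO libraries all lay below those of WT (-0.48, adjusted p = 0.071), a fall that was called without DKO1 replicate 4 (adjusted p = 7e-04) and after removal of the length trend (-0.53, adjusted p = 4e-06). Its DKO1 value against WT turned from 0.049 to -0.32 (adjusted p = 0.03) without DKO1 replicate 4, and to -0.28 (adjusted p = 0.002) after removal of the length trend. Against ACSS2 KO it went from -0.19 (adjusted p = 0.51) to -0.56 (adjusted p = 0.0015) without DKO1 replicate 4.

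The Rag GTPases work as pairs of RagA or RagB with RagC or RagD, and Rragd changed in opposite directions in the single knockouts. Rragd (chr4:32983037-33022180, plus strand) had 76.4, 60.1, 60.7 and 69.7 in WT libraries, 29.5, 24.6, 21.3 and 18.1 in those of ACLY KO, 250.4, 241 and 231 for ACSS2 KO and 21.5, 17.3 and 22.9 for DKO1. ACSS2 KO stood above and ACLY KO and DKO1 below all WT libraries. The log2 fold change was -1.49 ± 0.15 in ACLY KO (2.81-fold lower, adjusted p = 3.2e-06), 1.84 ± 0.16 in ACSS2 KO (3.59-fold higher, adjusted p = 4.1e-06) and -1.65 ± 0.16 in DKO1 (3.14-fold lower, adjusted p = 2.4e-06). DKO1 against ACSS2 KO gave -3.50 (adjusted p = 4e-09) and DKO1 against ACLY KO -0.16 (adjusted p = 0.49), and the interaction was -2.01 ± 0.23 (adjusted p = 3.9e-05). The calls against WT held in all alternatives at an adjusted p of 0.05. Rragb, on chromosome X, was too low to be tested, with 16.2, 21.5, 14.6 and 11.7 in WT libraries, 1.20, 1.90, 1.71 and 0.829 in those of ACLY KO, 8.14, 8.56 and 4.20 for ACSS2 KO and 1.03, 0.970 and 1.12 for DKO1, so that it was listed near 1 count in DKO1 and higher in every WT library. The abundant Rraga and Rragc averaged 1399 and 1135 counts per kb in WT, beside 12.9 for Rragd and 7.09 for Rragb. Rragc was not called in any comparison (-0.11, -0.11 and -0.089 against WT; adjusted p = 0.057 in ACLY KO, and 0.024 without DKO1 replicate 4), and Rraga fell in DKO1 by 0.20 on the log2 scale (adjusted p = 0.047), a call lost in 12 of 14 fits without a library.

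Ragulator anchors the Rag proteins to the lysosome. Of its subunits Lamtor3 had 1552, 1749, 1498 and 1460.1 in WT libraries, 1756, 1872, 1798 and 2015 in those of ACLY KO, 1236, 1167 and 1110.2 for ACSS2 KO and 2121, 2227 and 3167 for DKO1. It fell in ACSS2 KO (-0.42 ± 0.12, adjusted p = 0.021), a call lost without WT replicate 2 (-0.36, adjusted p = 0.056), ACSS2 KO replicate 2 (-0.41, 0.064) or ACSS2 KO replicate 4 (-0.38, 0.09). It rose in DKO1 (0.66 ± 0.12, adjusted p = 0.00045), with an interaction of 0.82 (adjusted p = 0.0031); without DKO1 replicate 4 these were 0.48 and 0.64 and remained called (adjusted p = 0.00017 and 0.00044). Lamtor4 had 530.1, 719.6, 422 and 429 in WT libraries, 693, 697, 635 and 814 in those of ACLY KO, 569, 477 and 506 for ACSS2 KO and 724, 917 and 2386 for DKO1. All DKO1 libraries exceeded all WT libraries, but replicate 4 lay far above the others, and the log2 fold change of 1.18 ± 0.32 (adjusted p = 0.0065) became 0.67 without it (adjusted p = 0.007). Lamtor5 had 1043, 1245, 987 and 931 in WT libraries, 1113, 1077, 1013 and 1178 in those of ACLY KO, 897, 788 and 866 for ACSS2 KO and 1029, 1122 and 1955 for DKO1 and passed only against ACSS2 KO (0.63, adjusted p = 0.014; 0.34 without DKO1 replicate 4, adjusted p = 0.017, and adjusted p = 0.051 without ACSS2 KO replicate 2). Lamtor1 and Lamtor2 were not called; after removal of the length trend Lamtor1 was -0.20 in DKO1 against WT (adjusted p = 0.0011), with 0.056 before it.

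Folliculin and its partners act on RagC and RagD. Flcn had 766, 802, 744 and 698 in WT libraries, 1114, 1117, 1102 and 1085 in those of ACLY KO, 879, 909.5 and 895 for ACSS2 KO and 1225, 1181 and 1032 for DKO1. Every knockout library was above every WT library (0.56 ± 0.063, 0.25 ± 0.068 and 0.60 ± 0.068 in ACLY KO, ACSS2 KO and DKO1; adjusted p = 8.8e-06, 0.015 and 7.4e-06). The ACSS2 KO call was lost without ACSS2 KO replicate 2 or 4 (0.24 and 0.25). Flcn is 1 of 8 tested members on chromosome 11, beside Fnip1, Sqstm1, Gabarap, Becn1, Ulk2, Wipi1 and Atp6v0a1. All were called higher than WT in DKO1, beside 27.9% of all tested genes. The share called among all genes of this chromosome was not counted. With only the groups compared in the fit, the calls of Fnip1, Wipi1 and Atp6v0a1 were lost. Over the 1045 tested genes of this chromosome the median against WT was 0.22 for DKO1, 0.15 for ACLY KO and 0.13 for ACSS2 KO. The part of the chromosome in the rises of these members was not tested. Fnip1 had 1291, 1167, 1363 and 1526 in WT libraries, 2085, 2113, 2146 and 1873 in those of ACLY KO, 1399, 1613 and 1518 for ACSS2 KO and 2217, 2153 and 1430.4 for DKO1. It rose in ACLY KO (0.62 ± 0.13, adjusted p = 0.0012) and DKO1 (0.51, adjusted p = 0.0068; DKO1 replicate 4 lay within the WT range). Fnip2 had 745, 596, 854 and 946 in WT libraries, 703, 626, 651 and 522 in those of ACLY KO, 524, 644 and 618 for ACSS2 KO and 782, 648 and 384 for DKO1. It was not called in any comparison, with groups that overlapped (-0.32 in ACLY KO and -0.38 in ACSS2 KO, adjusted p = 0.22 each). Without both DKO1 replicate 4 and WT replicate 2 both differences were called (-0.44 and -0.51, adjusted p = 0.0025 each), and likewise after removal of the length trend (-0.29 and -0.44, adjusted p = 0.012 and 0.0022).

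The 3 MiT/TFE genes did not move together. Mitf, the factor best known from pigment cells, had 66.7, 43.3, 63.6 and 65.9 in WT libraries, 144, 152, 148 and 124 in those of ACLY KO, 58.9, 57.7 and 52.7 for ACSS2 KO and 136, 114 and 93.3 for DKO1. ACLY KO and DKO1 lay above WT and ACSS2 KO without overlap (1.25 ± 0.15 and 0.93 ± 0.16 against WT, adjusted p = 1.6e-05 and 0.00034; -0.065 in ACSS2 KO, adjusted p = 0.83). Tfe3, on chromosome X, had 1043, 1016, 1003 and 1041 in WT libraries, 754, 759, 811 and 849.6 in those of ACLY KO, 1085, 1084 and 1101 for ACSS2 KO and 725, 686 and 596 for DKO1. It fell in ACLY KO (-0.37 ± 0.066, adjusted p = 0.00038) and DKO1 (-0.62 ± 0.071, adjusted p = 8.5e-06), and stood at 0.087 in ACSS2 KO (adjusted p = 0.42). Tfeb had 478, 521, 402 and 458 in WT libraries, 500.1, 489, 533 and 581 in those of ACLY KO, 676, 600.5 and 602 for ACSS2 KO and 393, 437 and 756 for DKO1 and was not called, although its ACSS2 KO libraries lay above all WT libraries (0.18, 0.43 and 0.13 in ACLY KO, ACSS2 KO and DKO1; adjusted p = 0.4, 0.097 and 0.56). DKO1 replicate 4 held the highest Tfeb value of all libraries. Without it the ACSS2 KO rise was called (0.43, adjusted p = 0.0022), DKO1 stood at -0.16 against WT (adjusted p = 0.2), and DKO1 was called below ACLY KO (-0.34, adjusted p = 0.024) and below ACSS2 KO (-0.59, adjusted p = 0.00044), with an interaction of -0.77 (adjusted p = 0.00085). Per kb, WT averaged 283 for Tfe3, 116 for Tfeb and 11.3 for Mitf, so Mitf was the least abundant of the 3. The interaction for Tfe3 was -0.34 (adjusted p = 0.025) and was lost in 5 of 14 fits without a library, with adjusted p up to 0.051 without ACLY KO replicate 4. These are levels of messenger RNA, and where the proteins lie in the cell was not measured.

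**Figure D4:**
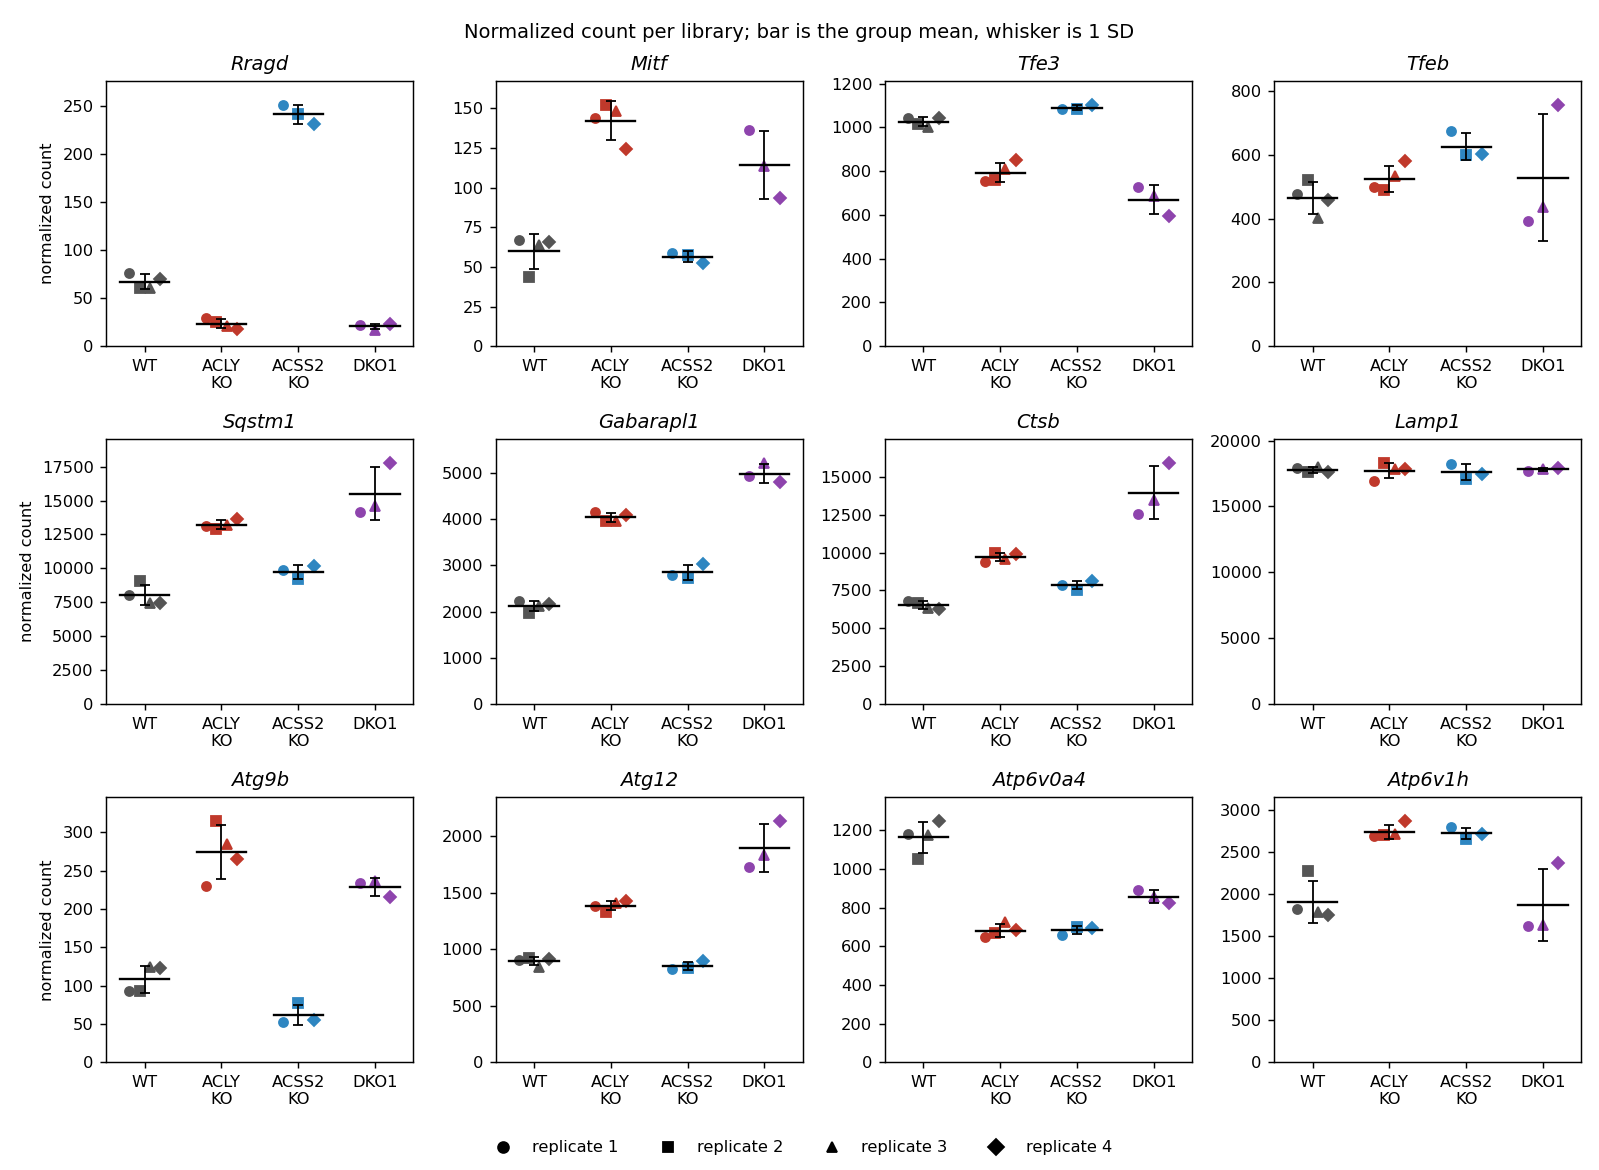
Normalized counts (y axis, from 0) in each of the 14 libraries by genotype for 12 members, with the group mean (line) and 1 SD (whisker). Rragd is high in ACSS2 KO alone, Mitf, Sqstm1, Gabarapl1, Ctsb, Atg9b and Atg12 are above WT in ACLY KO and DKO1, Tfe3 is below it there, and Lamp1 is level in all groups.

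Among the 12 genes that start autophagy and supply its membrane 5 rose and 1 fell in ACLY KO, 4 rose and 1 fell in ACSS2 KO, and 7 rose and 0 fell in DKO1. The shares that rose were 41.7%, 33.3% and 58.3%, beside 23.8%, 15.0% and 27.9% of all genes. Ulk1, the initiating kinase, had 1322, 1147, 1349 and 1382 in WT libraries, 1309.8, 1131, 1261 and 1094 in those of ACLY KO, 1286, 1483 and 1395 for ACSS2 KO and 1392, 1421 and 849.8 for DKO1 and was not called in any comparison (95% confidence interval in ACLY KO -0.42 to 0.19 and in DKO1 -0.46 to 0.20); without both DKO1 replicate 4 and WT replicate 2 it was -0.18 in ACLY KO (adjusted p = 0.025). Its relative Ulk2 rose in DKO1 (0.62 ± 0.13, adjusted p = 0.00097). Atg13, the adaptor of the kinase, had 872, 762, 825 and 835 in WT libraries, 1015, 928, 1042 and 994 in those of ACLY KO, 991, 1021 and 1034 for ACSS2 KO and 1172, 1130.1 and 964 for DKO1. It rose in all 3 knockouts (0.27, 0.30 and 0.40, adjusted p = 0.0059, 0.0099 and 0.00063), and Atg14, which directs the lipid kinase complex to autophagosomes, did so too (0.37, 0.42 and 0.38, adjusted p = 0.007, 0.0095 and 0.0087). Quantile normalization ended the calls of Atg14 in ACSS2 KO (0.27, adjusted p = 0.098) and DKO1.

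Becn1, the Beclin scaffold of the lipid kinase complex, had 2172, 2529, 2263 and 2272 in WT libraries, 2507, 2539.7, 2412 and 2601 in those of ACLY KO, 2865, 2731 and 2785 for ACSS2 KO and 3103, 2895 and 3571 for DKO1. It rose in ACSS2 KO (0.28, adjusted p = 0.015; without ACSS2 KO replicate 1 or 4 adjusted p = 0.062 and 0.05, and 0.12 after removal of the length trend). The rise in DKO1 was 0.46 ± 0.075 (adjusted p = 0.00017). Cntd1, which overlaps it on the other strand, averaged 43.0 to 85.5 by group, far below it. Wipi1, a reader of the lipid PI3P, had 431, 276, 379 and 352 in WT libraries, 248, 259, 297 and 248 in those of ACLY KO, 361, 357 and 386 for ACSS2 KO and 538, 532 and 387 for DKO1. ACLY KO was lower than WT (-0.44, adjusted p = 0.017; adjusted p = 0.059 without WT replicate 1) and DKO1 higher (0.44, adjusted p = 0.023), and DKO1 exceeded ACLY KO by 0.87 ± 0.15 (adjusted p = 0.00078). The DKO1 rise was lost without WT replicate 2, DKO1 replicate 1 or DKO1 replicate 3 (0.32, 0.35 and 0.36).

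Atg9b, a lipid scramblase of the vesicles that seed autophagosomes, changed most in this group. It had 92.5, 93.2, 125 and 123 in WT libraries, 230.3, 314, 285 and 265 in those of ACLY KO, 52.2, 77.3 and 55.9 for ACSS2 KO and 234, 237 and 216 for DKO1. ACLY KO and DKO1 were above and ACSS2 KO below all WT libraries, with log2 fold changes of 1.33 ± 0.15 in ACLY KO, -0.81 ± 0.16 for ACSS2 KO and 1.08 ± 0.16 for DKO1 (adjusted p = 6.5e-06, 0.0022 and 7.4e-05). Its last exons overlap Nos3 on the opposite strand by up to 294 bases, the libraries were directional but the strand setting of the counting is not given in the sources used here, and Nos3 averaged 29.2 in WT, 43.1 in ACLY KO, 24.9 for ACSS2 KO and 57.7 for DKO1. The widely expressed Atg9a rose in ACSS2 KO only among the comparisons with WT (0.42, adjusted p = 0.037; lost in 7 of 14 fits without a library, up to adjusted p = 0.14 without ACSS2 KO replicate 4). DKO1 against ACSS2 KO gave -0.27 for it (adjusted p = 0.14). Atg101 in DKO1 (0.62, adjusted p = 0.028) fell to 0.25 (adjusted p = 0.073) without DKO1 replicate 4, and the call was also lost without WT replicate 1, 3 or 4. Its DKO1 counts were 743, 856 and 1709. Its ACLY KO rise (0.53, adjusted p = 0.045) was lost in 10 of the 14 fits without a library. The lipid transfer gene Atg2a rose in ACLY KO (0.43, adjusted p = 0.031), with adjusted p up to 0.071 in the 5 of 14 fits that lost it, and Atg2b and Wipi2 were not called in any comparison. Without DKO1 replicate 4 Wipi2 was called lower in DKO1 than in ACLY KO (-0.23, adjusted p = 0.017) and ACSS2 KO (-0.18, adjusted p = 0.042), Atg2a higher in DKO1 than in WT (0.28, adjusted p = 0.046), and Atg9a higher than WT in ACLY KO (0.24, adjusted p = 0.032) and DKO1 (0.34, adjusted p = 0.018).

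The enzymes that conjugate ATG8 proteins to lipid rose in 6 of 11 cases in ACLY KO, 2 for ACSS2 KO and 8 for DKO1, and 0 fell by limma (0, 2 and 0 at an unadjusted p under 0.05). The shares that rose were 54.5%, 18.2% and 72.7%, beside 23.8%, 15.0% and 27.9% of all genes. Atg12, the ubiquitin-like partner of Atg5, had 909, 925, 848 and 917 in WT libraries, 1386, 1331, 1409 and 1425 in those of ACLY KO, 831, 837 and 896 for ACSS2 KO and 1726, 1833 and 2132 for DKO1. ACLY KO was above WT and DKO1 above ACLY KO without overlap (0.63 ± 0.067 and 1.07 ± 0.073 against WT, 0.45 between them; adjusted p = 5.1e-06, 7.8e-08 and 0.00061), while ACSS2 KO was -0.074 (adjusted p = 0.52). The interaction was 0.52 (adjusted p = 0.0022). Atg4a, a protease that primes and releases ATG8 proteins, had 294, 245, 311 and 266 in WT libraries, 347, 349, 329.6 and 335 in those of ACLY KO, 299.7, 282 and 334 for ACSS2 KO and 479.5, 522 and 515 for DKO1. It rose in ACLY KO (0.29, adjusted p = 0.01) and further in DKO1 (0.86 ± 0.089, adjusted p = 3.4e-06; DKO1 against ACLY KO 0.57, adjusted p = 0.00045), beside a median of 0.22 over 383 tested genes of chromosome X in DKO1.

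Atg10, which charges Atg12, had 73.8, 85.2, 75.9 and 83.5 in WT libraries, 111, 123, 126 and 112 in those of ACLY KO, 61.9, 65.5 and 70.6 for ACSS2 KO and 97.1, 99.8 and 138 for DKO1. It rose in ACLY KO (0.56 ± 0.12, adjusted p = 0.0012) and DKO1 (0.47, adjusted p = 0.0066; 0.26 and adjusted p = 0.052 after removal of the length trend), although the median of its chromosome 13 was -0.42 in ACLY KO over 475 tested genes. Atg16l2, a paralog of the scaffold Atg16l1, had 123, 140.1, 147 and 146 in WT libraries, 218, 194, 217 and 225 in those of ACLY KO, 191, 222 and 195 for ACSS2 KO and 206, 156 and 229 for DKO1. All 3 knockouts lay above WT (0.61, 0.54 and 0.48, adjusted p = 0.00061, 0.0058 and 0.0051), with an interaction of -0.67 (adjusted p = 0.013), lost after removal of the length trend (adjusted p = 0.19), as was the ACSS2 KO call (0.49, adjusted p = 0.053). Atg5 rose in DKO1 (0.34, adjusted p = 0.022), a call lost without DKO1 replicate 4 (0.17) or WT replicate 1 (0.30). The E1-like enzyme Atg7 and the E2-like Atg3 were not called against WT. Without DKO1 replicate 4 Atg7 was called higher in ACLY KO (0.16, adjusted p = 0.044) and ACSS2 KO (0.20, adjusted p = 0.032), and Atg3 lower in ACSS2 KO (-0.26, adjusted p = 0.029). Of the other Atg4 proteases, Atg4b rose in all 3 knockouts (0.15, 0.27 and 0.23; adjusted p = 0.024, 0.0026 and 0.0033), Atg4c rose in ACLY KO and DKO1 (0.38 and 0.46, adjusted p = 0.0035 and 0.0014), and Atg4d was not called (DKO1 against ACLY KO -0.047, and -0.22 with adjusted p = 0.041 without DKO1 replicate 4). The ACLY KO call of Atg4b was lost in 4 of the 14 fits without a library. Atg16l1 rose in DKO1 (0.23, adjusted p = 0.011).

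The ATG8 proteins coat the autophagosome membrane and Sqstm1 (p62) carries cargo to them. Of these 6 genes 3 rose in ACLY KO, 2 for ACSS2 KO and 5 for DKO1, the last a share of 83.3% beside 27.9% of all genes; those of ACLY KO and ACSS2 KO were 50% and 33.3% beside 23.8% and 15.0%. Gabarapl1 had 2228, 1983, 2127 and 2175 in WT libraries, 4155, 3950.0, 3966 and 4097 in those of ACLY KO, 2796, 2725 and 3026 for ACSS2 KO and 4942, 5207 and 4794 for DKO1. The 4 groups did not overlap and followed the order WT, ACSS2 KO, ACLY KO, DKO1, with 1.34-fold in ACSS2 KO (0.42 ± 0.060, adjusted p = 2e-04), 1.90-fold in ACLY KO (0.93 ± 0.056, adjusted p = 2.7e-08) and 2.34-fold in DKO1 (1.23 ± 0.060, adjusted p = 4.9e-09). DKO1 exceeded ACLY KO by 0.30 (adjusted p = 0.0025; 0.17 and adjusted p = 0.28 after removal of the length trend). Sqstm1 had 8082, 9107, 7486 and 7491 in WT libraries, 13103, 12936, 13223 and 13655 in those of ACLY KO, 9878, 9205 and 10169 for ACSS2 KO and 14146, 14622 and 17740.3 for DKO1. Its groups took the same order without overlap, and it rose 1.65-fold in ACLY KO (0.72 ± 0.083, adjusted p = 9e-06), 1.22-fold in ACSS2 KO (0.28 ± 0.089, adjusted p = 0.033) and 1.92-fold in DKO1 (0.94 ± 0.089, adjusted p = 1.5e-06). The ACSS2 KO call was lost in 5 of 14 fits without a library, up to adjusted p = 0.13 without ACSS2 KO replicate 4. Mrnip, on the opposite strand, shares up to 580 exon bases with Sqstm1 and averaged 87.7 to 158.0 by group, far below it.

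Map1lc3b, the LC3 form used most as a marker of autophagosomes, had 2938, 3178, 2715 and 2658 in WT libraries, 3739, 3842, 3656 and 3982 in those of ACLY KO, 3413, 3043 and 3231 for ACSS2 KO and 3603, 4026 and 5700.5 for DKO1. It rose in ACLY KO (0.41 ± 0.12, adjusted p = 0.01) and DKO1 (0.60 ± 0.12, adjusted p = 0.0012). Gabarap had 4235, 5060.0, 4095 and 3837 in WT libraries, 4980.1, 5318, 5003 and 5625 in those of ACLY KO, 5774, 5251 and 5459 for ACSS2 KO and 5679.8, 5595 and 9546 for DKO1. Its rise in DKO1 of 0.65 ± 0.16 (adjusted p = 0.0035) was 0.40 without DKO1 replicate 4 (adjusted p = 0.0023). The call of Gabarapl2 in DKO1 (0.54, adjusted p = 0.04) was lost in 10 of the 14 fits without a library, among them that without DKO1 replicate 4 (0.22, adjusted p = 0.16), and the same library bore on Map1lc3a. The latter had 773, 719.9 and 1653 in DKO1 and was called above ACLY KO (0.84, adjusted p = 0.035), but not without DKO1 replicate 4 (0.46, adjusted p = 0.11) or without any of the 4 ACLY KO libraries. Per kb, WT averaged 3188 for Gabarap, 1567 for Gabarapl2, 1169 for Gabarapl1, 697 for Map1lc3a and 554 for Map1lc3b.

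Lysosomal contents and membrane proteins differed from gene to gene. The protease cathepsin B, Ctsb, had 6791, 6683, 6318 and 6276 in WT libraries, 9347, 9937, 9600.2 and 9872 in those of ACLY KO, 7865, 7562 and 8153 for ACSS2 KO and 12528, 13432 and 15879 for DKO1. The groups did not overlap, and it rose 1.49-fold in ACLY KO (0.57 ± 0.070, adjusted p = 1.7e-05), 1.21-fold in ACSS2 KO (0.27 ± 0.075, adjusted p = 0.018) and 2.13-fold in DKO1 (1.09 ± 0.075, adjusted p = 9.4e-08). The ACSS2 KO call was lost without ACSS2 KO replicate 1 or 4 (0.27 and 0.24) and after removal of the length trend (0.24, adjusted p = 0.13). Fdft1, which shares up to 774 exon bases on the opposite strand, averaged 2535 to 3408 by group and had log2 fold changes of -0.25 in ACLY KO and 0.17 in DKO1. Cathepsin D, Ctsd, had 10799, 12089, 9789 and 9930.3 in WT libraries, 15658, 15709, 15508 and 16512 in those of ACLY KO, 10632, 9824 and 10244 for ACSS2 KO and 15882, 16731 and 23755 for DKO1. ACLY KO and DKO1 lay above WT and ACSS2 KO (0.58 ± 0.11 and 0.80 ± 0.12 against WT, adjusted p = 0.00074 and 9.1e-05). Cathepsin L, Ctsl, had 5929, 7607, 5682 and 5725 in WT libraries, 4616, 4571, 4411 and 4899 in those of ACLY KO, 6754, 6046 and 6742 for ACSS2 KO and 6104, 6465 and 9553 for DKO1. It went the other way in ACLY KO (-0.42, adjusted p = 0.017), a call lost without WT replicate 2 (-0.32, adjusted p = 0.051), after removal of the length trend (-0.39, adjusted p = 0.14) and under quantile normalization (-0.28, adjusted p = 0.067), and the median of its chromosome 13 was -0.42 there, which cannot be told apart from a change of the gene itself.

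Of the membrane glycoproteins, Lamp1 was level and Lamp2 rose. Lamp1 had 17885, 17585, 17980.3 and 17604 in WT libraries, 16958, 18276, 17829 and 17816 in those of ACLY KO, 18253, 17079.8 and 17464 for ACSS2 KO and 17672, 17878 and 17892 for DKO1. The groups overlapped and the log2 fold change against WT was -0.0040 (95% confidence interval -0.11 to 0.099) in ACLY KO, -0.014 (-0.13 to 0.098) for ACSS2 KO and 0.0042 (-0.11 to 0.12) for DKO1. Quantile normalization moved the ACLY KO value to 0.20 (adjusted p = 0.038). Lamp2, the receptor of chaperone-mediated autophagy, had 5325, 5383, 5555 and 5494 in WT libraries, 7822, 7597, 7681 and 7445 in those of ACLY KO, 7249, 7049 and 7286 for ACSS2 KO and 8700.4, 8689 and 9142 for DKO1. WT, ACSS2 KO, ACLY KO and DKO1 followed each other without overlap (0.40 ± 0.048, 0.49 ± 0.045 and 0.70 ± 0.048 against WT, adjusted p = 4.7e-05, 1.2e-06 and 9e-08). Mcoln1, a calcium channel of the lysosome, had 828, 832, 823 and 795 in WT libraries, 712, 803, 702 and 789.5 in those of ACLY KO, 869, 869 and 948 for ACSS2 KO and 710.5, 705 and 687 for DKO1 and fell in DKO1 (-0.23 ± 0.064, adjusted p = 0.0094; -0.16, adjusted p = 0.099 with equal library totals). Lamp5 was listed at 0 in all libraries and Lamp3 at 13.4 counts or fewer.

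The promoter windows of Lamp1 and Ctsd are shown because both carry several of the E-boxes marked above, yet Lamp1 was level and Ctsd rose in ACLY KO and DKO1. Those of Sqstm1, Gabarapl1 and Rragd, which changed, held no CACGTG in this window. Those of Atp6v0d1 and Fnip1 held it, and both genes rose in ACLY KO and DKO1. These examples were picked with the fold changes known, and the counts over tested members with a window are given above. The part of the motif in these changes was not tested.
Lamp1, chr8:13158911-13159210, plus strand: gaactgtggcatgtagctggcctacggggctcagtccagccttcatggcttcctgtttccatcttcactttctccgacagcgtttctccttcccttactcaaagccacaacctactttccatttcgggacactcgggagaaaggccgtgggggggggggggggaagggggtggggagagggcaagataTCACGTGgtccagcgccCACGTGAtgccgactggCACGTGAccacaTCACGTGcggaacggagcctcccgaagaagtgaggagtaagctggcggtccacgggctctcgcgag
Ctsd, chr7:142387778-142388077, minus strand: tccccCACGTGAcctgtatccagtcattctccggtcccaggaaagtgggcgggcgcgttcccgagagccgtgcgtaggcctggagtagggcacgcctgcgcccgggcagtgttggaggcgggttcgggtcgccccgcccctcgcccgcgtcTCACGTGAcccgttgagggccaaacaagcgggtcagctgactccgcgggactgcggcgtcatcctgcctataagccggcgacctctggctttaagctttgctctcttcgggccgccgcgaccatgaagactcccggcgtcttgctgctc
Gabarapl1, chr6:129532942-129533241, plus strand: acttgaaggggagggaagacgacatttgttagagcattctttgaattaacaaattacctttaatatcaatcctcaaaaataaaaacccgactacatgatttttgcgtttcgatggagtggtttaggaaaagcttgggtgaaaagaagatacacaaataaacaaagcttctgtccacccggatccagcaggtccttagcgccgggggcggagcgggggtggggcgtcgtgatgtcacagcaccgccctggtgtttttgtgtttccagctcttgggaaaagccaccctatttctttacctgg

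The interaction compared the difference of DKO1 from ACLY KO with that of ACSS2 KO from WT. As each genotype is 1 line, an effect of ACSS2 loss cannot be told apart from differences between lines. The interaction was called for 13 of 67 members, 9 above and 4 below 0, against 12.0% and 15.1% of all tested genes. Of these 2 passed the stricter limits (Atp6v0e2 and Rragd), against 4.61%. Atp6v0e2 averaged 289 in WT and 18.2 in ACLY KO, so that its differences start from unlike levels. With library totals made equal the split was 6 above and 12 below, as that scaling moved the median interaction of all genes from -0.008 to -0.16. In that fit 27.2% of all genes were called. Above 0 were Atg12, Atg4a, Atg5, Wipi1, Map1lc3a, Lamtor3, Atp6v0a4, Atp6v0e2 and Atp6v1b2, and below it Atg16l2, Atp6v1h, Rragd and Tfe3. The calls of Atg5 and Map1lc3a (0.51 and 1.22, adjusted p = 0.031 and 0.032) were each lost in 6 of the 14 fits without a library, and that of Atg4a (0.44, adjusted p = 0.02) without ACSS2 KO replicate 2 (0.38). For Rragd the ACSS2 KO rise in the ACLY-proficient line was not seen between ACLY KO and DKO1. In Lamtor3 DKO1 exceeded ACLY KO (0.41, adjusted p = 0.023; still called at 0.23 if DKO1 replicate 4 is left out, adjusted p = 0.045; lost without ACLY KO replicate 1 or 3, 0.38 and 0.39) while ACSS2 KO was below WT.

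Other genes of the pathways gave a wider picture. Of 54 tested further lysosomal genes 24 rose and 10 fell in ACLY KO (44.4% and 18.5%, beside 23.8% and 24.7% of all genes), 23 rose and 3 fell in ACSS2 KO (42.6% and 5.56%, beside 15.0% and 11.0%), and 28 rose and 12 fell in DKO1 (51.9% and 22.2%, beside 27.9% and 28.1%). Their median log2 fold changes were 0.22, 0.22 and 0.35. Man2b1, an alpha-mannosidase, fell from at least 1163 in every WT library to 262 to 308 in ACLY KO (-2.27, adjusted p = 3.6e-10) and 253 to 285 in DKO1 (-2.31, adjusted p = 8.6e-10), and rose to 2145 to 2306 in ACSS2 KO (0.69, adjusted p = 9.8e-05). Arsb, arylsulfatase B, fell in ACLY KO (-2.31) and DKO1 (-1.07) and rose in ACSS2 KO (0.48; adjusted p = 7.5e-10, 1.6e-06 and 0.0035). Ctso, a further cathepsin, rose in all (1.55, 0.60 and 0.69 in ACLY KO, ACSS2 KO and DKO1, adjusted p = 5.1e-08, 0.0012 and 0.00013). Over these 54 genes DKO1 exceeded ACSS2 KO in 19 and was below it in 15 (35.2% and 27.8%, beside 25.9% and 27.8% of all genes). DKO1 exceeded ACLY KO in 15 and was below it in 4 (27.8% and 7.41%, beside 14.3% and 13.6%). The interaction was called above 0 in 5 and below it in 16 (9.26% and 29.6%, beside 12.0% and 15.1%).

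A further list of 13 tested genes held accessory and assembly factors of the v-ATPase together with Tcirg1, the a3 subunit described above. Of these 5 rose and 1 fell in ACLY KO, 2 rose and 0 fell in ACSS2 KO (2 and 0 at an unadjusted p under 0.05), and 5 rose and 1 fell in DKO1. The gene that fell in ACLY KO and DKO1 was Tcirg1, which was also among those that rose in ACSS2 KO. The shares that rose were 38.5%, 15.4% and 38.5%, beside 23.8%, 15.0% and 27.9% of all genes, and the medians 0.26, 0.13 and 0.38. Rnasek, a V0-associated protein, rose in ACLY KO (0.73, adjusted p = 1.1e-05) and DKO1 (1.01, adjusted p = 1.1e-06), as did Atp6ap1 (0.26 and 0.56, adjusted p = 0.00084 and 1.8e-06), an assembly factor. Of 30 other autophagy genes 7 rose and 4 fell in ACLY KO, 9 rose and 2 fell in ACSS2 KO, and 11 rose and 5 fell in DKO1. In ACLY KO the share of this list that rose, 23.3%, lay at the 23.8% of all genes, and in ACSS2 KO and DKO1 it was 30.0% and 36.7%, beside 15.0% and 27.9%. The medians were 0.073, 0.16 and 0.083. Trp53inp2, a nuclear and autophagosomal adaptor, rose in each (0.43, 0.80 and 1.57; adjusted p = 0.0016, 6.4e-05 and 4e-08), and the cargo receptor Tax1bp1 fell in ACLY KO (-0.48, adjusted p = 7.6e-05) and DKO1 (-0.70, adjusted p = 4.7e-06). Sh3glb1, a membrane-curving partner of Beclin, fell in ACSS2 KO (-0.54, adjusted p = 1.6e-05) and rose in DKO1 (0.42, adjusted p = 3.4e-05). Over these 30 genes DKO1 exceeded ACSS2 KO in 4 and was below it in 8 (13.3% and 26.7%, beside 25.9% and 27.8% of all genes). DKO1 exceeded ACLY KO in 6 and was below it in 2 (20% and 6.67%, beside 14.3% and 13.6%).

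Of 35 tested mTORC1, GATOR and AMPK genes 10 rose and 3 fell in ACLY KO, 6 rose and 4 fell in ACSS2 KO, and 15 rose and 2 fell in DKO1. In ACSS2 KO the shares (17.1% and 11.4%) lay near the 15.0% and 11.0% of all genes. In ACLY KO 28.6% rose, beside 23.8%, and in DKO1 42.9%, beside 27.9%, and the medians in the 3 knockouts were 0.23, 0.099 and 0.21. Sesn1, a leucine-responsive inhibitor of mTORC1, rose in all 3 (0.85, 0.31 and 0.61; adjusted p = 1.8e-06, 0.018 and 6.8e-05). Prkab1, an AMPK subunit, fell in all 3 (-0.30, -0.20 and -0.53; adjusted p = 0.00012, 0.011 and 1.6e-06). Mlst8, a core mTOR subunit, rose in ACLY KO (0.36, adjusted p = 0.00085) and DKO1 (0.76, adjusted p = 2.5e-06) and fell in ACSS2 KO (-0.32, adjusted p = 0.0066). In these bulk libraries a change in the mix of cells and a change in RNA per cell cannot be told apart.

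The libraries that stood apart bore on short members above all. In DKO1 replicate 4 the 14 tested members with merged exons under 1500 bases were a median of 1.01 (log2) above the other DKO1 libraries, and the 53 longer ones 0.041. In WT replicate 2 the medians were 0.38 and 0.022 above the other WT libraries. With DKO1 replicate 4 and WT replicate 2 both left out, 38 members were higher and 8 lower in DKO1 than in WT, with a median of 0.24, among them 21 autophagy genes higher and 0 lower, and 8 subunits higher and 4 lower. All called members made up 46 of 67 there, at the share of all genes called (68.6%). After a spline of transcript length was removed from each library these counts were 39 and 8 (median 0.32), 22 and 0, and 9 and 3, where 65.5% of all genes were called. Without DKO1 replicate 4 alone 10 of the 35 members not called in ACLY KO against WT were called, 9 of 49 in ACSS2 KO and 4 of 25 in DKO1, in fits that called 61.5%, 40.0% and 61.3% of all genes. Fold changes of ACLY KO and ACSS2 KO against WT are the same in that fit by construction, and the spread shared by all groups was estimated without that library.

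**Figure D5:**
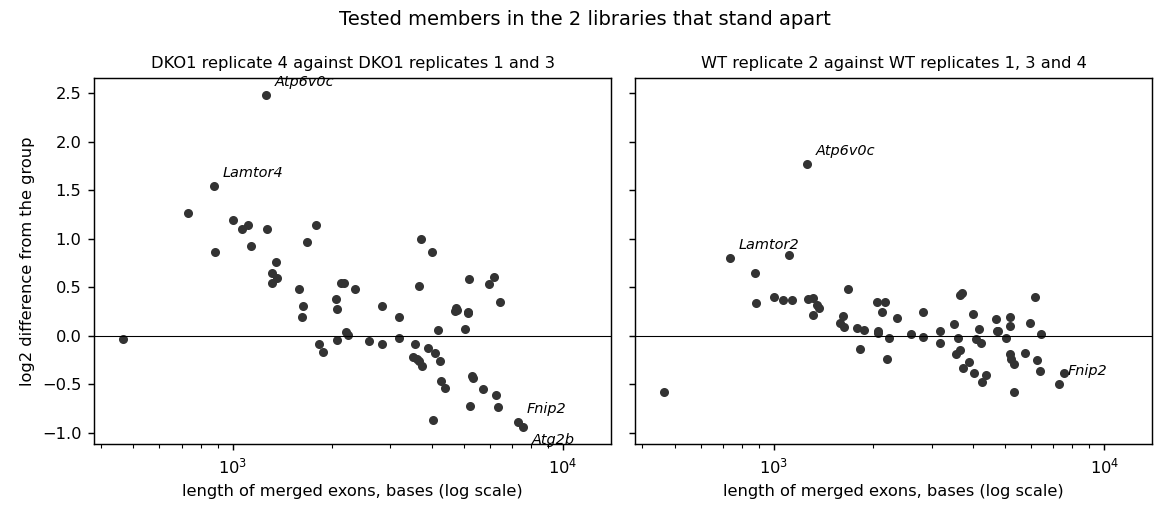
Log2 difference of DKO1 replicate 4 (left) and WT replicate 2 (right) from the mean of the other libraries of their group (y axis) for each of the 67 tested members, by length of merged exons in bases (x axis, log scale). Members under 1500 bases lie mostly above 0 in DKO1 replicate 4 (median 1.01) and longer ones around it (0.041), and the same slope is milder in WT replicate 2.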

How the data were processed

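Poly(A) RNA of 14 libraries had been prepared with a directional kit and read as single ends of 75 bases. Per the labels and the study's methods, the authors aligned reads with STAR to GRCm38/mm10, and deposited a gene table whose values are a signal: gene counts divided by DESeq normalization factors, from DESeq2 in an Illumina application whose version the submitters' processing notes give as 1.0.1. Gene annotation, counting tool and its strand setting are not given in the sources used here. The values of single reads scattered round 1 step per library, so whole reads could not be recovered and no count model was run. Genes with a mean of at least 10 over the libraries were tested with limma 3.58.1 (R 4.3.3, intensity trend) on log2(value + 1), with a coefficient per genotype and Benjamini-Hochberg adjustment over all 12693 genes. Called means an adjusted p under 0.05, and stricter limits were an absolute log2 fold change over 1.5 with an adjusted p under 0.01. The code was tested on simulated data. Paralog ratios were compared by exact permutation of libraries. 26 rows whose gene names had been turned into dates were left out of the named genes. Positions and exon lengths are from GENCODE vM21 (GRCm38), and promoter windows from RefSeq (GRCm38.p6). Members, gene lists and tests were chosen with earlier results of these data known. Members shown library by library are v-ATPase paralogs with both genes tested, up to 4 members of each role with the smallest adjusted p among those with a mean of at least 50, and 10 members fixed by name (Tfeb, Tfe3, Mitf, Sqstm1, Ulk1, Lamp1, Lamp2, Ctsb, Ctsd and Ctsl), and of each further pathway list 3 genes with the smallest adjusted p in ACLY KO or DKO1 against WT. Alternatives changed the pseudocount, filter, scaling, libraries, groups in the fit, replicate block, length trend, intensity trend and limits.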

Additional observations from a re-analysis of the deposited data

Results flagged for a closer look

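In 8 of 134 groups of 4 libraries (5.97%) 1 member value lay farther from the rest than Dixon's limit of 0.829 of the range, where chance gives about 1 in 20. Of these, 5 were in WT replicate 2 and 3 in ACLY KO replicate 4, both among the libraries that favoured short transcripts, and the part of that trend in these values was not tested. WT replicate 2 was low for Atp6v0a2 (1900.1, others 2286 to 2359) and Mitf (43.3, others 63.6 to 66.7), and high for Atp6v1d (1999.6, others 1443 to 1519), Atp6v1h (2276, others 1749 to 1819) and Ctsl (7607, others 5682 to 5929). ACLY KO replicate 4 was low for Atp6v0a1 (3354, others 3883 to 3969), and high for Atp6v1d (2106, others 1857 to 1889.5) and Atp6v1h (2863, others 2687 to 2708).

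The difference that went with ACSS2 loss was called another one in ACLY-deficient than in ACLY-proficient cells for 13 of 67 members (limma interaction, Benjamini-Hochberg adjusted p under 0.05). This is 13.4% above and 5.97% below 0, beside 12.0% and 15.1% of all tested genes. Of the 13 calls 6 were kept under every alternative, and each genotype is 1 line. The interaction is given here for each of these members. It was above 0 for Atp6v0e2 (3.05), Map1lc3a (1.22), Atp6v0a4 (1.09), Lamtor3 (0.82), Wipi1 (0.82), Atg12 (0.52), Atg5 (0.51), Atg4a (0.44) and Atp6v1b2 (0.27). It was below 0 for Rragd (-2.01), Atp6v1h (-1.09), Atg16l2 (-0.67) and Tfe3 (-0.34).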

How the results depend on the processing

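Of the calls, 26 of 32 in ACLY KO, 9 of 18 in ACSS2 KO, 27 of 42 in DKO1, 10 of 17 and 22 of 34 in DKO1 against ACLY KO and ACSS2 KO, and 6 of 13 of the interaction were kept under every alternative at an adjusted p of 0.05. Leaving out 1 library gave 28 to 42 members called in ACLY KO, 11 (without ACSS2 KO replicate 4) to 27 in ACSS2 KO, 37 to 44 in DKO1, 13 to 25 and 27 to 42 in DKO1 against ACLY KO and ACSS2 KO, 10 to 20 (without DKO1 replicate 1) for the interaction, and a ratio of Atp6v0e2 to Atp6v0e of -3.05 to -2.40. The highest counts in ACLY KO, ACSS2 KO and DKO1 against ACSS2 KO came without DKO1 replicate 4. In that fit 61.5%, 40.0% and 57.1% of all genes were called in these comparisons. Without DKO1 replicate 4 and WT replicate 2 the counts were 49 in ACLY KO, 35 in ACSS2 KO, 26 in DKO1 against ACLY KO and 29 for the interaction, and 68.8%, 47.9%, 43.4% and 44.1% of all genes. Without all 4 libraries that favoured short transcripts, an alternative chosen after seeing the data, they were 49, 36, 31 and 27, and 68.3%, 48.1%, 44.9% and 43.6% of all genes. With only the groups compared DKO1 against ACLY KO gave 11 (17.1% of all genes), and after removal of the length trend the interaction gave 22 (38.9%). The stricter limits left 1, 2 and 2 against WT, 0 and 2 for DKO1 against ACLY KO and ACSS2 KO (17 and 34 without them), and 2 for the interaction. The ratio of DKO1 to ACSS2 KO was -1.20 (exact permutation p = 0.1, the smallest possible). Equal library totals moved the median of all genes to 0.10 in ACLY KO, 0.11 in ACSS2 KO and -0.16 for the interaction, and gave 36 members above and 5 below WT for ACLY KO, and 19 and 4 for ACSS2 KO. In these fits 48.6% and 26.6% of all genes were called.

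The replicate numbers did not pair the libraries (5 of 18 correlations over 0.1, from -0.43 to 0.45). With the replicate number as a block 32, 16, 41, 16, 33 and 13 members were called in the 6 comparisons in the order above. The shares of all genes called in these fits were 46.9%, 23.0%, 53.4%, 24.6%, 52.1% and 24.7%.

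Beside leaving out a library, the setting that ended most calls was a fit of only the groups compared (32, among them those against WT of Atg10, Atg101, Atg14, Atg16l1, Atg4b, Atg5, Atp6v0a1, Atp6v1a, Fnip1, Gabarapl2, Lamtor4, Rraga and Wipi1 in DKO1). Removal of the length trend ended 12, no filter 9, the replicate block 8 (against WT those of Sqstm1 and Atp6v1b2 in ACSS2 KO and of Rraga in DKO1), equal library totals 8 (Wipi1 in ACLY KO, and the interactions of Wipi1, Atg4a and Atp6v1b2, among them) and quantile normalization 7.

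Values that turned were Atp6v1f in DKO1 (-0.32 without DKO1 replicate 4 to 0.29 without DKO1 replicate 1, -0.23 without the pair and without all 4 libraries, -0.28 after removal of the length trend), Atg101 in DKO1 against ACLY KO (-0.28 without the pair, -0.23 without all 4) and in the interaction (-0.37 and -0.30), Ulk1 in DKO1 against ACLY KO (0.23 and 0.19), Gabarap in the interaction (-0.33 and -0.26, and -0.29 after removal of the length trend), Map1lc3b in the interaction (-0.22 without the pair), Atp6v0a2 in DKO1 against ACLY KO (0.10 without the pair) and against WT (0.15 after removal of the length trend), Lamtor1 in DKO1 (-0.20 after it), Atp6v0c-ps2 in DKO1 against ACSS2 KO (-0.10 after it) and Lamp1 in ACLY KO (0.20 under quantile normalization). Of these Atp6v0c-ps2 was called before. The cause was not tested. The number of reads, known only as implied, and 3 or 4 libraries a group limit the precision, and low genes such as Rragb could not be tested.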

Other observations

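Levels per kb of merged exons differed widely within families. Among lysosomal members WT averaged 7969 for Lamp1, 5008 for Ctsd, 1011 for Ctsl, 1374 for Ctsb, 1079 for Lamp2 and 397 for Mcoln1. In DKO1 they averaged 7992, 8834, 1196, 2940.4, 1755 and 339.

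Some exons of members overlap genes on the other strand that changed themselves. Grtp1, which shares 177 bases with Lamp1, averaged 84.7 in WT, 178 in ACLY KO, 108 for ACSS2 KO and 170.0 for DKO1, far below Lamp1. Rgs20, which overlaps Atp6v1h, averaged 25.9 in WT, 3.25 in ACLY KO, 22.8 for ACSS2 KO and 4.90 for DKO1, while Atp6v1h averaged 1908 ± 247, 2739 ± 83.0, 2723 ± 67.3 and 1874 ± 427 (SD over libraries).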
